A study of Mus musculus with 2 samples.

Results

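The genes described here encode S100 proteins, small calcium-binding proteins, and include both subunits of calprotectin. The 10 genes are S100a3, S100a4, S100a6, S100a8, S100a9, S100a10, S100a11, S100a13, S100a14 and S100a16. They were chosen by name, with earlier results of these data known. Their data are the probe sets that the platform annotation assigns to 1 gene alone. In all, 9 of the 10 genes were measured, by 12 probe sets, of 18193 genes and 34945 such probe sets on the array. The probe set annotated to S100a11 is shared with other genes, so no value is given for S100a11.

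S100 proteins carry a pair of EF-hand loops, act mostly as dimers, and on binding calcium expose a surface that grips target proteins. S100a8 and S100a9 pair as calprotectin, a complex that withholds zinc and manganese from microbes, is abundant in neutrophils, and is induced in keratinocytes of wounded or hyperproliferative epidermis. Outside the cell it is a danger signal read by the receptors encoded by Tlr4 and Ager. Most S100 genes lie together beside the epidermal differentiation complex, a cluster of genes for the cornified layer.

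The cells were CD34-positive tumour epithelial cells, sorted alive by flow cytometry from skin tumours of mice after staining for CD34, α6-integrin and Epcam and, with one shared dye, for CD45, CD31 and CD140a. Tumours were induced in both genotypes with the carcinogen DMBA at postnatal days 23, 25 and 27, followed by the tumour promoter TPA and by more DMBA at 7 weeks of age. One group was wild-type and the other K14CreER:Rosa-VEGF-164, in which Cre under the keratin 14 promoter, inducible in its CreER form, is meant to switch on VEGF-164 in epidermal cells. Each genotype had 1 Affymetrix Mouse Genome 430 2.0 array made from 100 ng of total RNA, and the number of animals or tumours behind each array is not given in the sources used here. There is therefore no replicate error and no test between genotypes, and every statement on direction describes these 2 arrays. The only error available was how far the 2 brightest probe sets disagreed within each of 4885 genes, expressed as the SD of 1 probe set's log2 ratio. It was 0.50 for low signals, 0.42 for middle and 0.32 for high ones, and it leaves out the spread between animals, tumours, sorts and labelling reactions.

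Signals at or below background were not told from noise. The background was 19.8 on the wild-type array against 11.3 on the VEGF-labelled array, the 90th percentile of 80 probe sets for odorant and vomeronasal receptors. A gene took the value of its brightest probe set, and each log2 ratio sets the VEGF-labelled array over the wild-type one, while pairs of signals name the wild-type array first. Where only 1 array was above background, the fold is a bound against the other array's background. The genotype label could not be checked, since it is not known whether the Vegfa probe sets read the transgene. Both were at least 2-fold lower on the VEGF-labelled array, the brighter at 804 and 397 and the other at 302 and 127. Cells of the sort carried basal keratinocyte transcripts on both arrays (Krt14 8990.5 and 8571, Krt5 8352 and 7875). Ptprc, the gene of the leukocyte antigen CD45, had signals of 14.4 and 17.3. It passed only the lower background of the VEGF-labelled array and gave no ratio or bound. In such bulk RNA, a change in the number of cells of a kind and a change in RNA per cell cannot be told apart.

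The start regions of the members that differed most are shown first, with S100a6 for contrast as a member that hardly differed. Each runs from 250 bases before to 10 bases after the annotated start, 5′ to 3′ on the gene's strand, from RefSeq on GRCm38.p6. For S100a3, which has 4 windows, only the 1 that held TATAAA is shown. Capitals mark matches to the TATA box letters TATAAA, to the C/EBP letters TTGCNNAA and to the related letters TGANGCAA.
S100a8, chr3:90668821-90669080, plus strand: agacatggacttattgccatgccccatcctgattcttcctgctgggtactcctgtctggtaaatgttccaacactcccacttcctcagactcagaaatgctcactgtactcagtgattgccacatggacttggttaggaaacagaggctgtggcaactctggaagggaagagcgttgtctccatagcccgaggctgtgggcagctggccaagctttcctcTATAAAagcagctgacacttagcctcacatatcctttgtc
S100a9, chr3:90695712-90695971, minus strand: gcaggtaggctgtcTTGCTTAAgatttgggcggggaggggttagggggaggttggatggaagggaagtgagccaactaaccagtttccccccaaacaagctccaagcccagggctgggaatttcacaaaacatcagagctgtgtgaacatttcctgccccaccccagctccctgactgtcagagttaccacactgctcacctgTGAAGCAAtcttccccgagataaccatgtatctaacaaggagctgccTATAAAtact
S100a4, chr3:90603520-90603779, plus strand: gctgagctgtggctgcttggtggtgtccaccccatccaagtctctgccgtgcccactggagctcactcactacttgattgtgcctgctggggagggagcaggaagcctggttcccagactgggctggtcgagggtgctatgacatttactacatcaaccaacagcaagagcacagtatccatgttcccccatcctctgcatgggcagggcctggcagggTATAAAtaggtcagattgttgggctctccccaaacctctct
S100a3, chr3:90588313-90588572, plus strand: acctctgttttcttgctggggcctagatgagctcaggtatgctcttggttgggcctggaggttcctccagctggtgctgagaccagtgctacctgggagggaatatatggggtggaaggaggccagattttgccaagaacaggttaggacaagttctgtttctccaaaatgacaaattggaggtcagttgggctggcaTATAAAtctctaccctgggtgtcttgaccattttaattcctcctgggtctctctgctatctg
S100a6, chr3:90612644-90612903, plus strand: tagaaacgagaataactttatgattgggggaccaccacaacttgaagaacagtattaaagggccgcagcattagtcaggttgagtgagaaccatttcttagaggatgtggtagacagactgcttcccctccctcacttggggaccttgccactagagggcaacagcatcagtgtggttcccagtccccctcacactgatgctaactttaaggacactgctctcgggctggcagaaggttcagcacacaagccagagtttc

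Motifs were searched on both strands in windows of 300 bases, 250 before to 50 after the start, which were available for 8 of the 10 members, and they were chosen with the expression values known. TATAAA was present in windows of S100a8, S100a9, S100a4 and S100a3, in the last for 1 of 4 annotated starts. Counting the annotated start as 1 and the base before it as -1, the match began at -30 in S100a8, at -31 in S100a4, at -52 in S100a3 and at 1 in S100a9. These are the 4 measured members with the ratios of at least 2-fold described below, while 0 of the 3 members under 2-fold that had a window, S100a6, S100a13 and S100a16, held it. S100a11, which has a window and no value, did not hold it either. These counts take a match at any position and in any window of a gene. Of all 32851 windows, 13.6% held TATAAA, a share of single windows that is not on the same footing as these counts of genes. S100a7l2 and S100g held it as well, and neither gene exceeded background on either array.

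The AP-1 letters TGANTCA, which read the same on both strands at this pattern, occurred in 7.81% of all windows. Among members they were found in S100a11, with matches beginning at -136 and -38, and in 1 of 2 windows of S100a16. TTGCNNAA occurred in 10.8% of windows and, among members, in S100a9 alone, at -236. TGANGCAA occurred in 3.69% of windows and among members in S100a9, at -47, and in 1 further window of S100a3. A match describes the letters of the window and not a bound site.

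The measured S100 genes fell into 2 kinds on these arrays: S100a4, S100a9, S100a8 and S100a3 were between 2.37- and 5.61-fold higher on the VEGF-labelled array, and S100a6, S100a10, S100a13, S100a14 and S100a16 were nearly equal. Past the 2-fold limit were 4 of the 9 measured members in the higher direction and 0 in the lower. Over all 12198 genes with a ratio or bound, 3.87% were at least 2-fold higher, 8.53% at least 2-fold lower and 12.4% either. Because the members were chosen with earlier results known, these shares are given for scale only. The members' median log2 ratio was 0.17, beside -0.04 over all those genes. All 12 member probe sets were above background on both arrays, and 4 of them were at least 2-fold higher, beside 3.53% of all named probe sets with a ratio or bound.

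**Figure D1:**
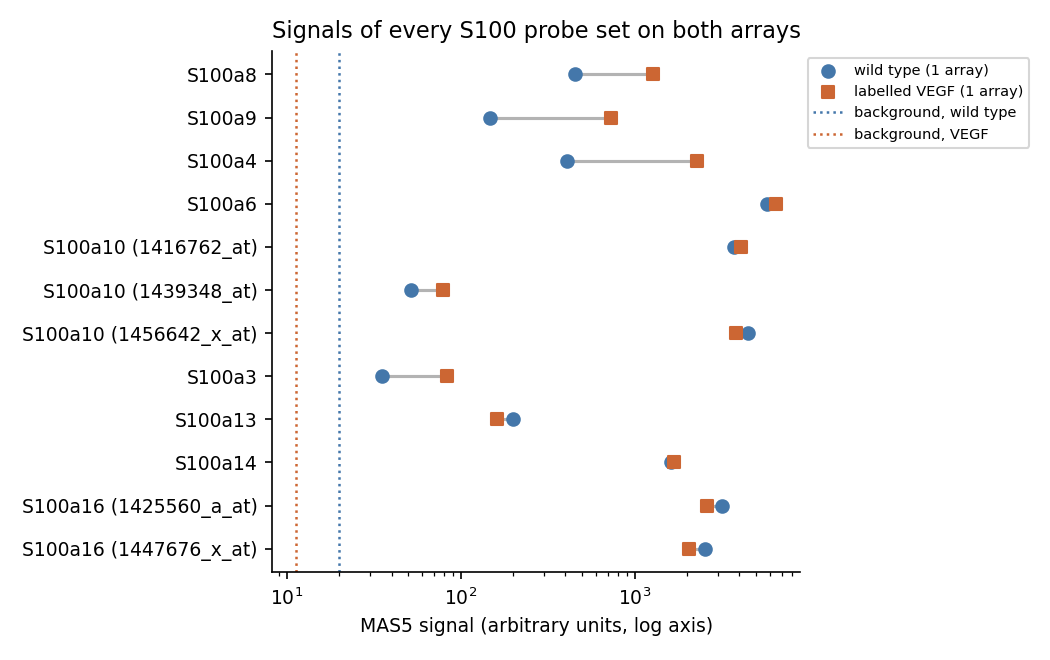
MAS5 signals (log axis, arbitrary units) of the 12 S100 probe sets on the wild-type array (circles) and the VEGF-labelled array (squares), with each array's background as a dotted line. The pairs of S100a8, S100a9, S100a4 and S100a3 are wide apart, and the pairs of S100a6, S100a14 and S100a16 nearly coincide; levels of different probe sets are not comparable with each other.

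Both calprotectin subunits were higher on the VEGF-labelled array. S100a8, the subunit also called calgranulin A, had a signal of 455 on the wild-type array against 1279 on the VEGF-labelled array, 2.81-fold higher (log2 ratio 1.49, probe set SD 0.32). Its single probe set is of the kind that can bind several transcripts. S100a9, the partner subunit calgranulin B, had signals of 146 and 729, 4.98-fold higher (log2 ratio 2.32, SD 0.32). Each ratio was several times the SD between probe sets of a gene, and both signals were well above background on both arrays.

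The ratios of the subunits differed by 0.82 on the log2 scale, S100a9 over S100a8. Among the 1629 genes in the highest tertile by signal, where both subunits lie, the 2 brightest probe sets of a gene differed with an SD of 0.45, and 6.26% of these pairs disagreed by at least 0.82, as did 14.4% of pairs at all signals. No test of the difference between the subunits can be made with 1 array per genotype. Among all 12198 genes, 0.377% had a ratio as high as that of S100a9 and 1.49% one as high as that of S100a8.

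S100a4, which encodes a binder of non-muscle myosin linked to cell motility and metastasis, had the highest ratio of the family. Its signal was 407 on the wild-type array against 2284 on the VEGF-labelled array, 5.61-fold higher (log2 ratio 2.49, SD 0.32). Only 0.303% of genes had a ratio as high, which placed it at position 37 from the top. The target gene Myh9, of the non-muscle myosin IIA heavy chain, was nearly equal by its brightest probe set (2803 and 2658), while its other probe sets ran from -1.67 to -0.11 on the log2 scale.

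S100a3, known for its product in the cuticle of the hair shaft, where the enzyme encoded by Padi3 modifies it, had low signals of 35.1 and 83.0. It was 2.37-fold higher on the VEGF-labelled array (log2 ratio 1.24), with a larger probe set SD of 0.50 at this signal. This is the weakest of the 4 higher values: with the medians of the arrays matched and an offset of 50 added to every signal, the log2 ratio was 0.90, under 2-fold, and its mean signal was below the limit of 4 times background, so the stricter filter gave no value. Padi3 had signals of 264 on the wild-type array against 382 on the VEGF-labelled array (log2 ratio 0.54).

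**Figure D2:**
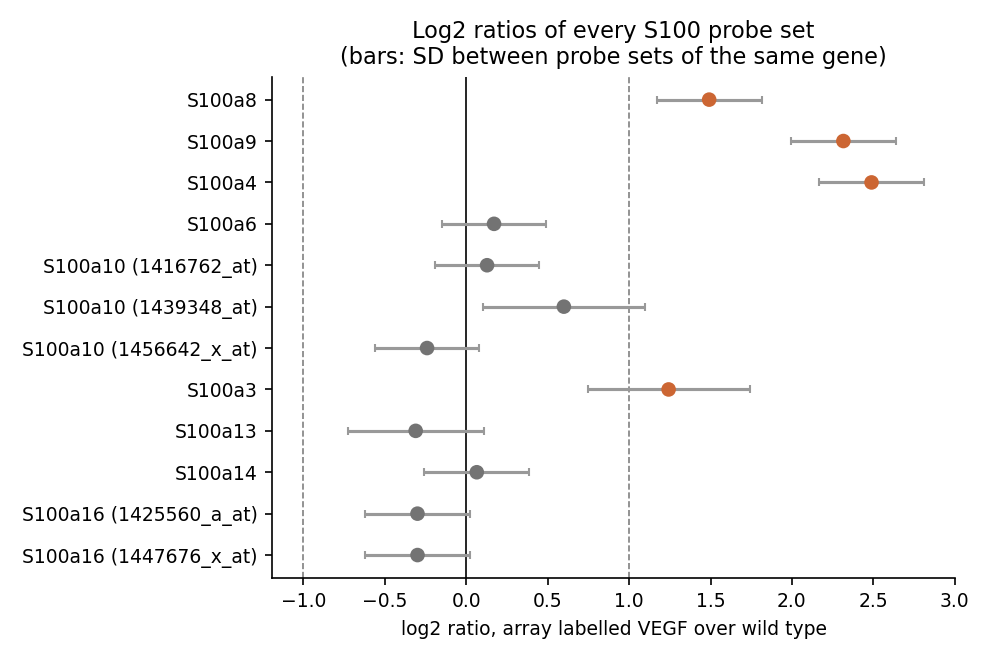
Log2 ratio (VEGF-labelled over wild-type array) of each of the 12 S100 probe sets, with bars of 1 SD between probe sets of the same gene at that signal; dashed lines mark 2-fold. The probe sets of S100a4, S100a9, S100a8 and S100a3 lie beyond the upper line, S100a3 with a bar that crosses it, and the other 8 lie between the lines.

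The other 5 measured members were under 2-fold apart. S100a6, or calcyclin, had signals of 5798 on the wild-type array against 6526 on the VEGF-labelled array (log2 ratio 0.17, SD 0.32). S100a14, an S100 protein found mainly in epithelia, had signals of 1619 and 1693 (log2 ratio 0.06, SD 0.32). S100a13, which takes part in the export of the growth factor FGF1, had signals of 199 and 161 (log2 ratio -0.31, SD 0.42).

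S100a16, a broadly expressed member, was read by 2 probe sets that gave the same ratio. They had signals of 3196 and 2524 on the wild-type array and of 2597 and 2051 on the VEGF-labelled array, and a log2 ratio of -0.30 each. The ratios of S100a6, S100a13, S100a14 and S100a16 were each smaller than the probe set SD, within what probe sets of a gene differ by.

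S100a10, which binds annexin A2 at the membrane and has lost the ability to bind calcium, had 3 probe sets that did not go one way. The brightest had a signal of 4495 on the wild-type array against 3804 on the VEGF-labelled array (log2 ratio -0.24), the next 3725 and 4069.9 (0.13). The dimmest had 52.0 and 78.7 (0.60), slightly more than its SD of 0.50. The brightest is of the kind that can bind several transcripts, and the sign of the gene's ratio depends on which probe set is taken.

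**Figure D3:**
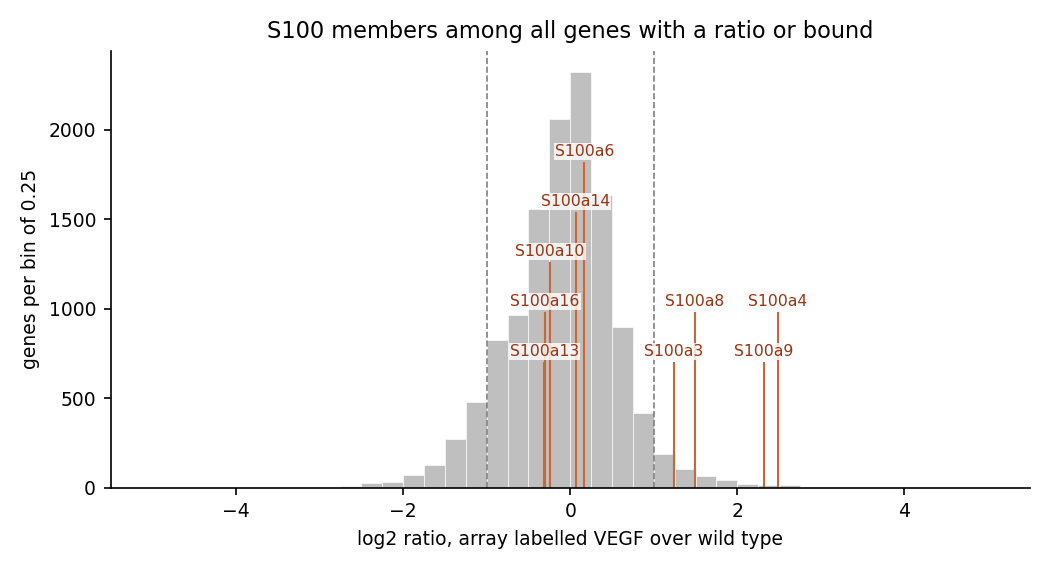
Histogram of the log2 ratios (VEGF-labelled over wild-type array) of 12198 genes in bins of 0.25, with the 9 measured S100 members marked by labelled lines and 2-fold by dashed lines. S100a4 and S100a9 stand in the far upper tail, S100a8 and S100a3 beyond the upper dashed line, and the other 5 in the central mass.

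Of 6 other S100 genes listed, S100a1, S100a5, S100b and S100g were measured, 3 had a ratio or bound, and 0 of these were at least 2-fold apart. S100a1, best known in heart and skeletal muscle, had a signal of 132 on the wild-type array against 76.3 on the VEGF-labelled array by its brightest probe set (log2 ratio -0.79), and 48.0 and 14.7 by the other (-1.71). S100b, a marker of glia and melanocytes, had 37.6 and 19.3 (log2 ratio -0.96), and 35.5 and 14.7 by its other probe set (-1.27). The melanocyte list was lower on the same array, with 2 of 4 genes at least 2-fold lower, beside 8.53% over all genes. Among the 2 was Dct, an enzyme of melanin synthesis (53.6 on the VEGF-labelled array against 153). The part of this list in the S100b values was not tested. S100a5 exceeded background only on the VEGF-labelled array (8.89 and 20.4, at least 1.03-fold higher), a bound that leaves a larger difference possible, and with no floor it was past 2-fold. S100g did not exceed background on either array.

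S100-fused proteins, which join an S100 domain to long repeats and build the upper epidermis and the inner root sheath, were mostly too dim for a ratio. Of 5 measured, 4 gave no ratio or bound. Flg, of filaggrin, had signals of 3.75 on the wild-type array against 10.99 on the VEGF-labelled array, Hrnr, of hornerin, 0.632 and 0.486, and Rptn, of repetin, 11.02 and 14.7. Tchhl1 had 9.02 and 12.96, and like Rptn it exceeded only the lower background of that second array, too little for a bound. Tchh, of trichohyalin in the inner root sheath and hair medulla, was the exception, with 84.3 and 41.7, 2.02-fold lower on the VEGF-labelled array. That value sits at the limit, and it was under 2-fold after quantile or loess normalization, with centred ratios and with the offset.

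In gene order along chromosome 3, the higher S100 members formed 2 stretches, S100a3 with S100a4 and S100a8 with S100a9, and S100a6, nearly equal, lay between them. The order begins S100a1, S100a13, S100a14, S100a16, where log2 ratios ran from -0.79 to 0.06. It goes on with S100a3 (1.24), S100a4 (2.49), S100a5 (bound 0.04), S100a6 (0.17), S100a8 (1.49) and S100a9 (2.32). S100a2 and S100a7a, which lie among them, had no probe set of their own. The order was read from the GRCm38.p6 gene table and compares ratios only.

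Beyond S100a9, the stretch up to S100a10 holds 55 other protein-coding genes, most of them of the cornified layer. Of these, 36 had a probe set and 22 a ratio or bound. At least 2-fold higher on the VEGF-labelled array were 15 of the 22, beside 3.87% over all genes. By that much lower was 1, beside 8.53%, and it is Tchh, at the limit as described above. The median log2 ratio was 1.71, beside -0.04 over all genes. The higher genes include Sprr1a, a cornified envelope precursor gene, at 2.55, and Lor, the loricrin gene, at 1.85. Those of Sprr3, Lce1i, Lce3a and Lce3c are bounds. Several of them belong to near-identical families, so single values there are uncertain, and the stretch was picked with these values known. S100a10, at its far end, was nearly equal.

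**Figure D4:**
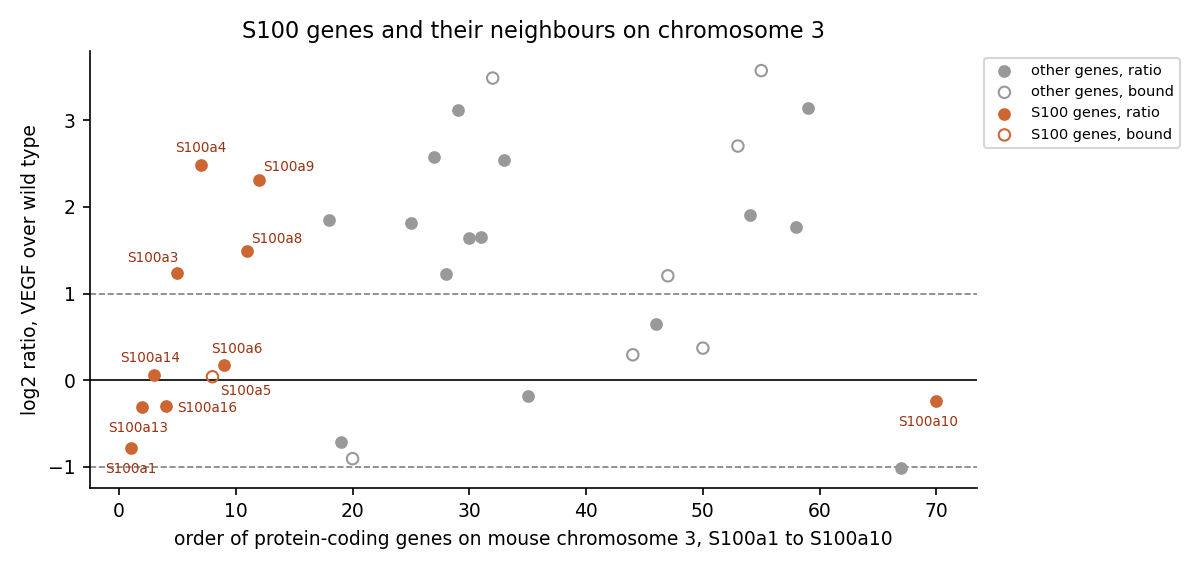
Log2 ratio (VEGF-labelled over wild-type array) of genes in their order on mouse chromosome 3 from S100a1 to S100a10 (70 protein-coding genes, evenly spaced), S100 genes in colour and named, others in grey; open symbols are bounds and dashed lines mark 2-fold. S100a3, S100a4, S100a8 and S100a9 lie above the upper line, with S100a6 between the pairs near 0, and many of the cornified layer genes that follow also lie above it.

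Receptors and binding partners of S100 proteins were looked at next. Of 18 measured partners 15 had a ratio or bound. None was 2-fold higher or more (0 of 15), 1 was at least 2-fold lower, and the median log2 ratio was 0.14, counts too small to set apart from the 3.87% higher and 8.53% lower over all genes. Ager, of the receptor RAGE, was at background on both arrays (13.6 on the wild-type array against 1.93 on the VEGF-labelled array). Tlr4, of the other calprotectin receptor, exceeded background only on the VEGF-labelled array (10.9 and 36.3, at least 1.83-fold higher), and of its 3 other probe sets 1 gave a bound. Anxa2, of the annexin that pairs with S100a10, had 3790 on the wild-type array against 4815 on the VEGF-labelled array (log2 ratio 0.35), and a dimmer probe set gave -0.51. Anxa1, the member with the brightest probe set, had 5916 and 7824 (0.40).

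The partner at least 2-fold lower was Alcam, of an adhesion molecule also described as a calprotectin receptor, with 581 on the wild-type array against 246 on the VEGF-labelled array. Its other 4 probe sets ran from -1.56 to 0.02 on the log2 scale. Fgf1, exported with S100a13, had 39.5 and 20.6 (log2 ratio -0.94), and S100pbp, of an S100-binding protein, 59.7 and 36.0 (-0.73).

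Transcription factors and cytokine receptors linked to S100a8 and S100a9 expression were also measured. Of 13 measured, 12 had a ratio or bound. At least 2-fold lower were 2, at least 2-fold higher 0, beside 8.53% and 3.87% over all genes, and a count of 0 among 12 is no result about this list at such a share. The median log2 ratio was -0.43, with 4 of the 12 above 0. Cebpb, of a C/EBP factor of keratinocytes and myeloid cells, had a signal of 4298 on the wild-type array against 1993 on the VEGF-labelled array (log2 ratio -1.11, other probe set -0.87). Cebpd, of a related factor, had 529.6 and 218 (-1.28), while its dimmer probe set gave -0.01. The AP-1 genes Jun (6862 and 3830.0, log2 ratio -0.84, other probe set -1.63) and Junb (1047 and 601, -0.80) went the same way, and Fos, with the brightest probe set of the list, had 9373 and 6942 (-0.43). Also below 0 were Stat3 (812 and 492, -0.72), Cebpa (-0.42) and Nfkbiz (-0.28). The other probe sets of Stat3 ran from -1.41 to 0.43, and those of Nfkbiz from -0.93 to 0.27. Another AP-1 gene, Fosl1, had a higher signal on the VEGF-labelled array (433 and 582, log2 ratio 0.43). So did Il17ra, of an interleukin-17 receptor chain (77.6 and 103, 0.41). Il1r1, of an interleukin-1 receptor, gave a bound of 0.22, and Rela had 0.02.

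Transcripts of cells that are rich in calprotectin or S100a4 were looked at beside these values. Of 12 neutrophil markers 10 were measured, with 2 above background on the wild-type array against 6 on the VEGF-labelled array, and a summed signal of 466 and 863. Most of that sum came from Mmp9 (352 and 415) and Ltf, the lactoferrin gene (8.45 and 375). The other markers were named after their values were seen. Cxcr2 exceeded background only on the VEGF-labelled array (8.03 and 22.5, at least 1.14-fold higher), while Elane, Camp, Itgam and Mmp8 did not exceed background on either array. In signal, 7 of the 10 were lower on the VEGF-labelled array, among them Mpo (23.8 and 13.4), and Ngp (18.1 and 13.2) and Csf3r (17.5 and 13.5) passed only the lower background there. Signals at background do not show that neutrophils were absent, and whether neutrophil RNA adds to S100a8 and S100a9 was not tested. The 8 macrophage markers had a summed signal of 283 and 288, with Cd14 at 81.7 and 126 and Cd68 at 43.4 and 69.0. In signal 5 of the 8 were lower on the VEGF-labelled array, Csf1r (47.8 and 27.1) and Adgre1 (22.3 and 2.41) among them, and the 1 gene past 2-fold, C1qb, was lower (33.3 and 15.1). The 5 general leukocyte markers summed to 165 and 145, with Coro1a at 25.8 and 64.7 and Laptm5 at 74.2 and 51.3. Of these 5, Coro1a was at least 2-fold higher and Cd52 (29.6 and 3.52) at least 2-fold lower, and Fcer1g had 21.4 and 8.63.

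Markers of fibroblasts, cells that express S100a4 and S100a6, had a higher sum on the VEGF-labelled array, most of it from collagen genes. The 9 fibroblast markers summed to 1224 on the wild-type array against 2737 on the VEGF-labelled array, and 8 and 9 of them were above background. The ratio or bound was above 0 for 5 and below 0 for 4. At least 2-fold higher were 2, beside 3.87% over all genes. These were the collagen genes Col3a1 (489.9 and 1235) and Col1a2 (324 and 942). Pdgfra, of the antigen CD140a, had 9.86 and 34.7, above background only on the VEGF-labelled array and at least 1.75-fold higher. Also above 0 were Col1a1 (135 and 236) and Lum (68.7 and 122), and the median log2 ratio of the list was 0.80. Of the 4 below 0, Dcn had 91.3 and 72.3 and Fap 20.5 and 12.5, while Pdgfrb (36.8 and 34.9) and Dpt (48.2 and 47.8) were nearly equal. The part of fibroblasts in the S100a4 value was not tested. S100a6, already bright on the wild-type array (5798 and 6526), had a log2 ratio of 0.17, and the part of fibroblasts in it was not tested either.

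Keratinocyte and hair lists were mixed. In the suprabasal keratinocyte list of 8, the log2 ratio was above 0 for 4 and below 0 for 4, with a median of 0.03. Its summed signals were 16631 and 17424. The 2-fold limit was reached upward by 3, Krt1 (382 and 1124), Lor (43.7 and 157) and Sbsn (918 and 1839), and downward by 0. Over all genes, 3.87% reached it upward and 8.53% downward. Sbsn, at 2.00-fold, sits at that limit. The lowest ratio was that of Calml3 (985 and 588, log2 ratio -0.75), and Ivl had -0.18. Krtdap (7354 and 6754) and Dmkn (4296 and 4113), the brightest of that list, were nearly equal. Of 6 basal keratinocyte genes 0 were 2-fold apart. Of 11 measured hair shaft markers, 6 did not exceed background on either array, and 5 had a ratio or bound, 2 above 0 and 3 below. Above 0 were Padi3, the brightest of the list (264 and 382), and Krt83, with a bound of 0.29. Below 0 were Krt81 (89.7 and 63.6), Krt32 (54.8 and 43.0) and Krt35 (23.0 and 1.38), the 1 at least 2-fold lower, by a bound. The part of these lists in the S100 values was not tested.

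The other marker lists were dim or mixed, and their counts stand beside 3.87% of all genes at least 2-fold higher and 8.53% lower. Of 4 platelet genes 1 was at least 2-fold higher, Ppbp (6.71 and 480), with Itga2b at 69.3 and 39.4. Of 4 antigen-presenting genes 1 was at least 2-fold lower and 0 higher, with H2-Ab1 at 137 and 194 and Cd74 at 78.0 and 59.8. Of 4 T cell genes 3 were at background on both arrays, and Thy1 had 58.1 and 25.1. Of 5 endothelial genes 0 were 2-fold apart, and 2 were above background on the wild-type array against 4 on the VEGF-labelled array. Pecam1 (3.07 and 22.0) and Emcn (4.57 and 27.2) exceeded background only on the latter. Their bounds, at least 1.11- and 1.37-fold higher, leave a larger difference possible. Kdr had 30.6 and 42.5, and Cdh5 was lower (27.3 and 16.8). The control probe sets of Gapdh and Actb, from the 3′ to the 5′ end of the transcripts, had log2 ratios between -0.28 and 0.19, lowest at the 3′ end of both. The 3 control probe sets of 18S ribosomal RNA were all higher on the VEGF-labelled array, with log2 ratios of 1.11, 0.50 and 0.53, and the part of this in the S100 values was not tested.

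Across the processing settings 3 of the 4 higher members kept to that side of the 2-fold limit. S100a4, S100a9 and S100a8 were at least 2-fold higher in all settings that gave a value, which for S100a8 leaves out the setting without probe sets prone to cross-hybridise. Their log2 ratios ran from 2.46 to 2.74, from 2.26 to 2.36 and from 1.45 to 1.77. S100a3 ran from 0.90 to 1.43, under 2-fold with the offset, and had no value with the stricter filter. S100a6 ran from 0.17 to 0.56, S100a14 from 0.02 to 0.44, S100a10 from -0.24 to 0.15, S100a13 from -0.34 to 0.06 and S100a16 from -0.30 to 0.09, so the sign of the last 3 depends on the setting and their size stays under 2-fold. The top value of each of these 5 came with the offset setting. That setting matches the array medians as well, and it moved the median of all genes from -0.04 to 0.11.

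**Figure D5:**
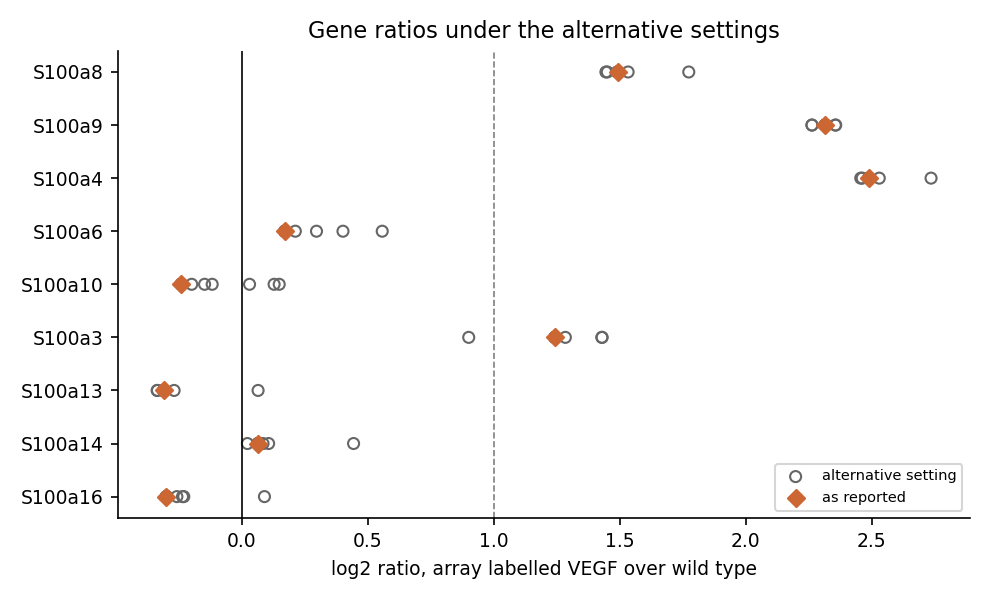
Log2 ratio (VEGF-labelled over wild-type array) of the 9 measured S100 genes as reported (filled diamonds) and under each of 10 alternative settings that gave a value (open circles); the dashed line marks 2-fold. S100a4, S100a9 and S100a8 stay beyond the line, S100a3 falls short of it in 1 setting, and S100a10, S100a13 and S100a16 have values on both sides of 0.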

How the data were processed

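RNA of sorted CD34-positive tumour epithelial cells was measured on 2 arrays, 1 for each genotype. Log2 signals were deposited by the authors. Per the submitters' processing notes they come from MAS5, which treats each array alone, with neither version nor scaling target stated. After anti-logging, the 2% trimmed mean was 100.04 for each array. Of 45101 probe sets, 64 were controls, and 34945 of the rest had 1 gene in the platform annotation, 932 several and 9160 none. The RefSeq gene table (GRCm38.p6) held the IDs of 18032 of 18193 genes, and 0 symbols differed.

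From the deposited log2 signals, ratios were computed in Python 3.11.15 with pandas 2.3.3, above the background described, as at least 2-fold or less, with no test. The calculation was tested on simulated data. The number of arrays limits the precision. Named genes were all members and other S100 and S100-fused genes, and for the partner and regulator lists the 4 largest ratios, the brightest gene and Anxa2, Ager and Tlr4. For marker lists they were the 2 brightest on the VEGF-labelled array with Ptprc, Pecam1 and Pdgfra; other names were added after their values were seen. Members, lists and settings were chosen with earlier results of these data known. Alternatives were other floors, an offset, quantile and loess normalization (statsmodels 0.14.6), centred ratios, other gene summaries and a stricter filter. The offset setting added 50 to every signal after the array medians were matched, with no floor.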

Additional observations from a re-analysis of the deposited data

How the results depend on the processing

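With 1 array per genotype no setting gives a test. The count of members at least 2-fold higher was 4, and 3 with the offset, with the stricter filter and without probe sets prone to cross-hybridise, while 0 were at least 2-fold lower in each of the 10 alternatives. Their median log2 ratio ran from 0.12 to 0.56. The offset setting also matched the medians of the arrays and used no floor. It moved the median of all genes from -0.04 to 0.11. Nearly equal members moved further, such as S100a6 from 0.17 to 0.56 and S100a10 from -0.24 to 0.15. These shifts belong to the whole setting and not to the added offset alone. Counts of related genes at least 2-fold apart moved more, and the cause was not tested. The fused genes went from 1 to 2 with no floor and to 0 with the offset, with quantile or loess normalization and with centred ratios. The partners went from 1 to 4 with no floor, to 2 with quantile or loess normalization, and to 0 with the offset or the median over probe sets. The other S100 genes went from 0 to 1 with no floor, to 2 with the median over probe sets, and to 1 without probe sets prone to cross-hybridise. The regulators went from 2 to 0 with the offset and to 1 with the median over probe sets. Among all genes at least 2-fold apart, 31.2% were higher as deposited, 51.1% after quantile and 52.8% after loess normalization and 85.9% with the offset. Among those genes the higher and lower counts were 472 and 1041 as reported, 1670 and 2786 with no floor, 472 and 624 with the common floor, 401 and 521 with array medians as floors, and 309 and 323 with the stricter filter. Low signals limit S100a3, S100b and the fused genes, which lie within a few times background. No paired analysis was possible, because each genotype has 1 array and the labels give no pairing.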
